A study of Mus musculus with 2 samples.

Results

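The passage 20 mitotic G2/M cells were the 474 cells with the highest levels of 9 mitosis genes among the 4749 kept cells of a culture of mouse brain pericytes at passage 20. The cells were chosen by their levels of these genes. For each cell, the UMIs (unique molecular identifiers, which count captured RNA molecules) of *Cenpf*, *Plk1*, *Cdc20*, *Ccnb1*, *Prc1*, *Nusap1*, *Hmmr*, *Cenpe* and *Cenpa* were summed and divided by all UMIs of the cell, and the top 10% of cells by this score were taken. The other 4275 passage 20 cells were the contrast. The score chose the cells, so the levels of these 9 genes and of every other gene in the 2 sets are given as a description, without a test.

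Single cells of pericytes (PCs) were taken from the brain of 6- to 8-week-old female wild type C57BL/6N mice, cultured on collagen for 5 passages (PC5) or 20 passages (PC20), and profiled by droplet RNA-seq of 3′ transcript ends. The labels name no transgene and no treatment for either group. Each passage was 1 library from cells pooled over 6 mice. The study's methods describe a separate isolation for each passage and the labels a single procedure that does not say so, and if the isolations were separate, passage and isolation cannot be told apart. Barcodes needed over 1000 genes and a mitochondrial share below 20%, which left 4749 of 4884 PC20 barcodes with 191122251 UMIs and 9950 of 10629 PC5 barcodes with 223054273 UMIs. The libraries shared 20 barcodes. Of the PC20 G2/M barcodes, 5 were also among the kept PC5 barcodes, and 0 were G2/M in both.

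Cells that have copied their DNA pass through G2 into mitosis. Cyclin B with its kinase CDK1, helped by the polo and aurora kinases, starts chromosome condensation and spindle assembly, the kinetochores join the chromosomes to spindle fibres, and the spindle assembly checkpoint holds the cell back until all are attached. The anaphase-promoting complex with its activator CDC20 then marks cyclin B and securin for degradation, and the midzone proteins complete division. Many of the genes for these proteins are transcribed late in the cycle and are held down in resting cells through a promoter element called the cell cycle genes homology region. Adult brain pericytes rarely divide in the vessel wall, whereas pericytes in culture are carried through repeated divisions.

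*Cenpf*, which encodes a kinetochore and nuclear matrix protein of late G2, carried the largest part of the score. Levels are counts per 1000000 UMIs (CPM) summed over the cells of a set, and ratios are log2 ratios of CPM. Unless stated, intervals in parentheses are exact 95% intervals for counting error or, for medians and shares of cells, for the sampling of cells. They do not cover replication, since cells are not replicates and each passage had 1 library. *Cenpf* had 1165 CPM in PC20 G2/M cells and 69.5 CPM in the other PC20 cells, a log2 ratio of 4.07 (4.04 to 4.10). A single G2/M cell held between 0 and 366 *Cenpf* UMIs with a median of 43, against a median of 0 and a highest value of 84 in the other cells, so the cells of the 2 sets overlapped in this gene although their medians did not. *Plk1*, the polo kinase that drives mitotic entry, had 196 and 14.6 CPM (log2 ratio 3.75), with a median of 8 and a highest value of 44 UMIs in a G2/M cell. *Cdc20* had 222 and 21.8 CPM (3.35), and *Ccnb1*, which encodes cyclin B1, had 315 and 30.7 CPM (3.36). *Prc1*, whose product bundles microtubules of the spindle midzone, was the second most abundant of the 9, with 789 and 85.2 CPM (3.21). The lowest ratio of the 9 was 2.82, that of *Cenpa*, the centromeric histone H3 variant, which had 84.6 CPM in the other cells. *Nusap1*, *Hmmr* and *Cenpe*, for 2 spindle microtubule proteins and a kinetochore motor, had ratios of 3.51, 3.31 and 3.28.

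All 9 score genes had a UMI in 423 of the 474 G2/M cells (89.2%, exact binomial interval 86.1 to 91.9) and in 424 of the 4275 other cells (9.92%, 9.04 to 10.9). With every cell thinned to 10000 UMIs the shares were 52.4% of 439 G2/M cells and 0.543% of 4049 others, and 35 and 226 shallower cells were left out. Free RNA in droplets can give a UMI in a cell that does not express a gene. No cell type that should lack these genes was identified in the library to give that background, and 935 of the other cells (21.9%) had no UMI of any of the 9.

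The score was continuous at the cut. The lowest G2/M cell had a score of 2442 CPM and the highest other cell had 2438 CPM. Within 10% of the cut lay 54 G2/M cells above and 66 other cells below. The median score was 3892 CPM in G2/M cells and 98.6 in the others, and the highest was 12525. The 50 G2/M cells nearest the cut and the 50 other cells nearest it had 610 and 567 CPM of *Top2a* and 418 and 424 CPM of *Mki67*, both outside the score, with intervals that overlapped. For *Aurka* (107 and 74.9 CPM) and *Cdk1* (236 and 190 CPM) the intervals did not overlap. Nor did they for *Ctla2a*, a protease inhibitor gene (416 and 362 CPM), and the nuclear noncoding RNA *Malat1* (10806 and 11283 CPM). Over the whole sets, by contrast, *Ctla2a* was lower and *Malat1* higher in G2/M cells.

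The start sites of score genes are shown with the promoter elements of late cell cycle genes marked. The sequences are RefSeq windows on the build GRCm38.p6 from 120 bases before the start site to 30 after it, printed 5′ to 3′ along the gene. Capitals mark the homology region (TTTGAA or TTCGAA) and the CCAAT box (CCAAT), each on either strand, so that ATTGG is a CCAAT box on the opposite strand. The windows were chr1:189688057-189688206 (minus strand) for *Cenpf*, chr4:118437314-118437463 (minus) for *Cdc20*, chr7:80294331-80294480 (plus, the first of 2 start sites) for *Prc1*, chr11:40733408-40733557 (minus) for *Hmmr* and chr5:30666766-30666915 (plus) for *Cenpa*, each of which held the homology region, and chr13:100786457-100786606 (minus) for *Ccnb1*, which held 2 CCAAT boxes and none of the homology letters.
Cenpf: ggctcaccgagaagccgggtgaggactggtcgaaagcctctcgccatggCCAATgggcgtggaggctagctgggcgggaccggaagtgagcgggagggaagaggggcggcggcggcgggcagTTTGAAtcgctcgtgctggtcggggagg
Cdc20: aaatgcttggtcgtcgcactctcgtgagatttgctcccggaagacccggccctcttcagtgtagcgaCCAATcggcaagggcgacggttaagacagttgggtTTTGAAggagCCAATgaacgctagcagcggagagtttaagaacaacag
Prc1: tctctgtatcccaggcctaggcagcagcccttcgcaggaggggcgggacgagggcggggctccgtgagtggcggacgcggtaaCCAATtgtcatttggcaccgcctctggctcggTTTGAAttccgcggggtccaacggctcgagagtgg
Hmmr: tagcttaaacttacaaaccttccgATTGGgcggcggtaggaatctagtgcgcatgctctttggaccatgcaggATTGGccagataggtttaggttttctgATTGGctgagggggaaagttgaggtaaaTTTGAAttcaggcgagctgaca
Cenpa: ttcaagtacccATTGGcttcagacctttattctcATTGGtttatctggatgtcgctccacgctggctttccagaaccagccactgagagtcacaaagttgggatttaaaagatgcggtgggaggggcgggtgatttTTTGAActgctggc
Ccnb1: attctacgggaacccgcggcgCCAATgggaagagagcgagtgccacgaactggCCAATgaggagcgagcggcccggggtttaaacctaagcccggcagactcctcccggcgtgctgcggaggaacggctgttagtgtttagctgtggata

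In these windows the homology region began at position -18 in *Cdc20*, -5 in *Prc1*, 3 in *Cenpf*, 9 in *Hmmr* and 17 in *Cenpa*, where position 1 is the first transcribed base. Over the longer RefSeq windows of 300 bases (250 before the start and 50 after), 6 of the 9 score genes held the homology region and 8 held a CCAAT box. *Nusap1* held neither. Across all 32851 promoter windows the homology letters were in 19.2% and CCAAT in 37.4%. A window was found for 8068 of the 10213 detected genes, and 16.1% of these held the homology region.

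The homology region was found in 139 of the 290 matched genes (47.9%) that were at least 2-fold higher in PC20 G2/M cells, and in 70 of the 106 (66.0%) that were at least 4-fold higher. Without the score genes these were 133 of 281 (47.3%) and 64 of 97 (66.0%). It was found in 7 of the 46 matched genes (15.2%) that were at least 2-fold lower, and in 14.3% of 6894 genes within 0.5 log2 units of equality. Both elements were present in 53.8% of the genes at least 4-fold higher and in 8.12% of all detected genes. E2F-type sites (TTTGGCGC, TTTCGCGC or TTTCCCGC, either strand), the element of many replication genes, were in 4.54% of all detected genes, 6.60% of the genes at least 4-fold higher, 6.52% of those at least 2-fold lower and 40.9% of the 44 matched genes of the replication and S phase list. A match of these letters is a description of the window and not evidence of a bound factor.

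Of 31053 listed genes, 10213 were detected, with a UMI in 10% or more of the cells in one or the other set. Of these 375 (3.67%) were at least 2-fold higher and 62 (0.607%) at least 2-fold lower in PC20 G2/M cells, while 85.1% lay within 0.5 log2 units of equality. The score used this contrast, so nothing is read from these shares. In 7 gene lists of mitosis, 102 of the 140 detected genes outside the score were at least 2-fold higher and 0 were lower. A gene detected only through the set in which it was high had to differ, so these counts carry no test. Outside all lists were 230 of the 375 genes.

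**Figure D1:**
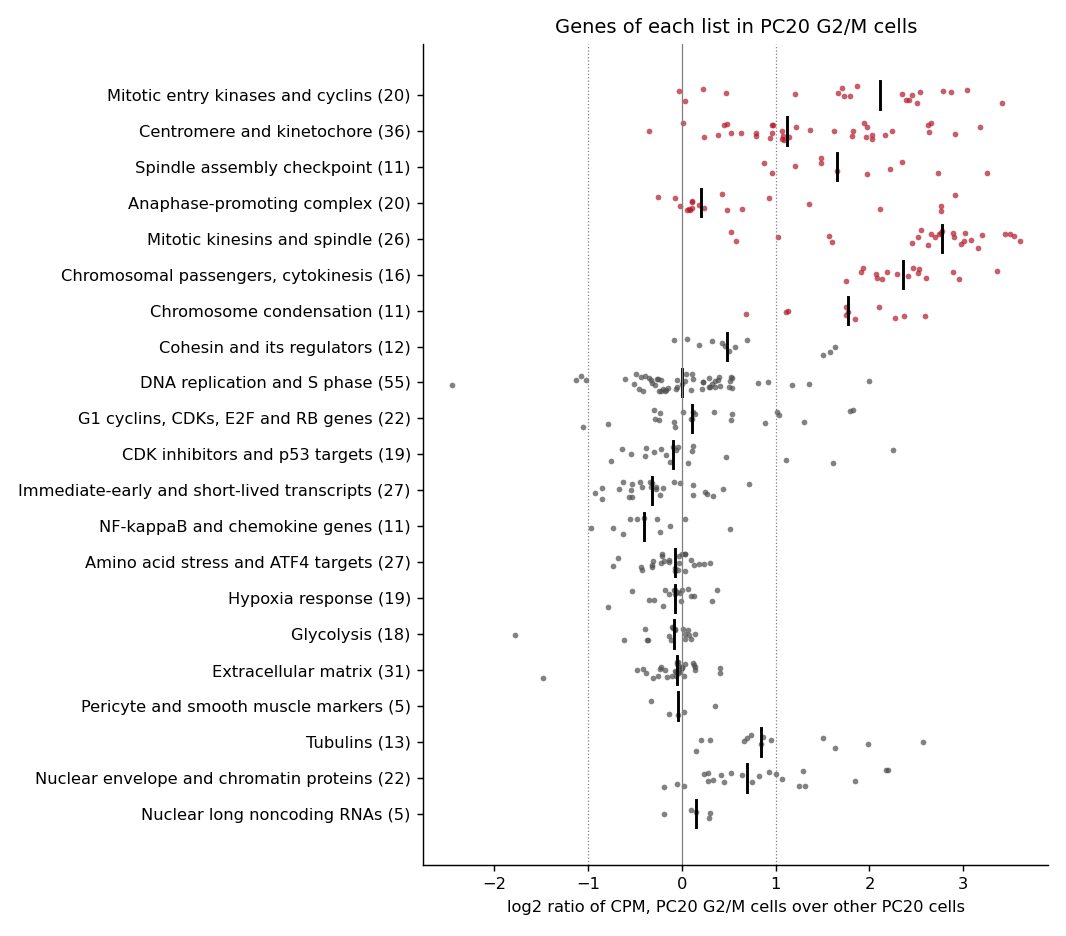
Log2 ratio of CPM in PC20 G2/M cells over other PC20 cells (x axis) for the detected genes of each list, without the 9 score genes. Each point is a gene, black bars are medians, red marks the mitosis lists, dotted lines mark 2-fold and the number of genes is in parentheses; the kinesin and spindle list has the highest median, 2.77, and the replication list sits around 0.00.

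The mitotic kinesins and spindle genes had the highest median ratio of any list outside the score. Of 26 genes, 24 were at least 2-fold higher, with a median log2 ratio of 2.77. *Kif2c*, a microtubule-depolymerising kinesin at the centromere, had 103 CPM in G2/M cells and 8.50 CPM in the others (3.60, interval 3.51 to 3.70). *Aspm*, a spindle pole protein, had 263 and 22.6 CPM (3.54). *Kif20a*, *Kif23* and *Kif11*, motors of the midzone and of spindle bipolarity, had ratios of 3.45, 2.98 and 2.74. *Tpx2*, the spindle assembly factor that activates aurora A, was the most abundant with 690 and 118 CPM. The 2 genes under 2-fold were *Numa1* (0.58) and *Psrc1* (0.52).

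All 16 genes of the chromosomal passengers and cytokinesis were at least 2-fold higher, with a median of 2.35. *Cep55*, which recruits the abscission machinery to the midbody, had the highest ratio (3.36, 110 against 10.8 CPM). The passenger complex itself, *Aurkb*, *Incenp*, *Birc5* and *Cdca8*, had ratios of 2.07, 2.53, 2.18 and 2.52. *Ect2* and *Racgap1*, which place the contractile ring, had 2.60 and 2.46. *Arl6ip1*, an endoplasmic reticulum protein, was the most abundant of the list with 987 and 186 CPM.

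Of the 20 mitotic entry kinases, cyclins and regulators, 16 were at least 2-fold higher. *Aurka*, aurora kinase A, had 173 and 16.2 CPM (3.42). A single G2/M cell held 0 to 35 *Aurka* UMIs with a median of 7, and a single other cell 0 to 17 with a median of 0. *Ccna2* and *Ccnb2*, for cyclins A2 and B2, had ratios of 2.87 and 2.42, and *Cdk1* had 2.39. The activating phosphatases *Cdc25b* and *Cdc25c* had 2.50 and 2.78, and *Wee1*, which encodes the opposing inhibitory kinase, had 1.87. *Ensa* and *Arpp19*, the substrates through which the kinase of *Mastl* restrains a phosphatase, were at 0.03 and -0.02, while *Mastl* itself was at 2.46.

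Kinetochore genes were less uniform, with 22 of 36 at least 2-fold higher and a median of 1.12. The outer kinetochore genes *Ndc80*, *Nuf2* and *Knl1*, whose products hold microtubules, had ratios of 2.63, 2.24 and 2.64. Genes of the constitutive inner kinetochore spanned the whole range of the list, from *Cenpx* at -0.35 over *Cenpo* at 0.24 and *Cenph* at 0.39 to *Cenpl*, which had the highest ratio (3.18) at 24.5 CPM. *Spc24*, a partner of *Ndc80* in the same complex, was at 0.96, with 195 CPM in G2/M cells and 100.4 CPM in the others.

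Among 11 spindle checkpoint genes, 9 were at least 2-fold higher. *Sgo2a*, a shugoshin that protects centromeric cohesion, had 231 and 24.2 CPM (3.25). *Bub1b*, *Ttk* and *Bub1*, for checkpoint kinases, had ratios of 2.73, 2.22 and 1.98, and *Mad2l1* had 1.48. Of the 20 genes listed for the anaphase-promoting complex and its partners, 5 were at least 2-fold higher. Its E2 enzyme *Ube2c* (1199 and 177 CPM, 2.76), its inhibitor *Fbxo5* (2.77), its second activator *Fzr1* (2.11) and separase, *Espl1* (2.92), were at least 2-fold higher, as was *Ube2s* (1.36). The core subunits were all under 2-fold, from -0.26 for *Cdc26* to 0.93 for *Cdc27*, and securin, *Pttg1*, was at 0.23 with 22.7 CPM.

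Of 11 genes of chromosome condensation and topology, 10 were at least 2-fold higher, with *Mki67*, the proliferation antigen that coats mitotic chromosomes, at 2.60 (603 and 99.8 CPM) and *Top2a*, the topoisomerase that untangles sister chromatids, at 2.27 (817 and 169 CPM). *Top2a* ranged from 0 to 157 UMIs in a G2/M cell around a median of 40, and from 0 to 129 in another PC20 cell around a median of 1. Of the 12 cohesin genes, 3 reached 2-fold, and these were *Rad21* (1.63), *Esco2* (1.58) and *Cdca5* (a UMI in 42.8% and 14.1% of cells), while the ring subunits *Smc1a* and *Smc3* were at 0.46 and 0.19. Tubulins were higher in 13 of 13 detected genes and at least 2-fold higher in 4, with *Tubb5* the most abundant at 1180 and 745 CPM (0.66) and *Tubb4b* at 614 and 155 CPM (1.99). Of all 10213 detected genes, 48.6% were below 0 and 3.67% at least 2-fold higher. Of 22 genes for the nuclear envelope and chromatin proteins 7 reached 2-fold, with *Lmnb1*, lamin B1, at 2.20 and *H2afx*, the histone variant phosphorylated at DNA breaks, at 2.18.

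Genes of DNA replication went in both directions against the other PC20 cells, as did all detected genes. Of 55 detected genes, 3 were at least 2-fold higher, 4 at least 2-fold lower and the median log2 ratio was 0.00, with 28 genes above 0 and 27 below. Of all 10213 detected genes, 3.67% were at least 2-fold higher, 0.607% at least 2-fold lower and 48.6% below 0. The sum of the replication list was higher, with a log2 ratio of 0.28 (0.27 to 0.29). The median cell held 2278 CPM of the list in the G2/M set (2188 to 2355) and 1432 CPM in the others (1379 to 1486), where cells spread more widely, from 646 CPM at percentile 10 to 3653 CPM at percentile 90. The 3 higher genes were *Dbf4* (2.00), *Uhrf1* (1.36) and *Usp1* (1.18). The lower ones were *Ung*, a uracil glycosylase (-2.45), *Cdc6*, which loads the replicative helicase (-1.12), *Mcm6*, a subunit of that helicase (-1.07), and *Chaf1b*, a histone chaperone subunit (-1.02). *Ung* passed the detection minimum only through the other cells, where it was higher, so its place among the lower genes carries no test. *Pcna*, the replication clamp, had 21.3 CPM in G2/M cells and 29.3 CPM in the others (-0.46). Of the genes that start S phase, *Ccne2*, for cyclin E2, had 1.87 and 3.87 CPM (-1.05), and the transcription factor gene *E2f1* had 12.4 and 21.4 CPM (-0.79). The E2F repressor gene *E2f7* had 14.5 and 5.85 CPM, and its relative *E2f8* had a log2 ratio of 1.82. In the list of G1 cyclins, E2F and RB genes 5 of 22 were at least 2-fold higher (*E2f5*, *E2f7*, *E2f8*, *Lin9* and *Lin52*) and *Ccne2* alone was at least 2-fold lower. *Ccne2*, too, passed the detection minimum only through the other cells, so this count carries no test.

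Along the order of all PC20 cells by score, cut into 10 deciles, these genes were highest in the middle. The summed replication list went from 1020 CPM in the lowest decile to 2603 and 2605 CPM in deciles 6 and 7, and was 2283 CPM in the highest, which is the G2/M set. *Mcm6* went from 23.9 CPM to 64.7 CPM in decile 6 and back to 18.6 CPM in the highest. Clustered histone genes, whose messages are made during DNA synthesis, went from 223 to 1332 CPM in decile 7 and stood at 1041 CPM in the highest, where 32 of 33 detected ones were above the other cells by a median of 0.59. Of all detected genes, 48.6% were below 0. *Hist1h1b*, a linker histone, had 126 and 75.8 CPM (0.73). The kinesin and spindle list was at 330 CPM in the lowest decile, 903 CPM in decile 6 and 4320 CPM in the highest. The other PC20 cells thus held replication transcripts too, and against the 2375 of them at or below the median score the replication list had a median log2 ratio of 0.61 in place of 0.00 and *Cdc6* was at 0.088.

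**Figure D2:**
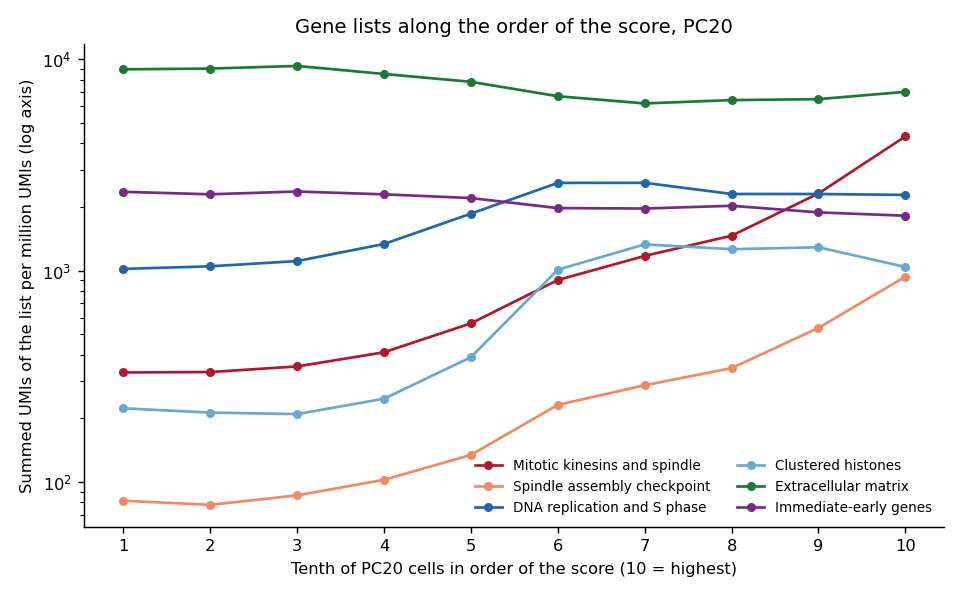
Summed CPM of 6 gene lists (log y axis) in each decile of the 4749 PC20 cells ordered by the score, where the one labelled 10 is the G2/M set. Replication genes are highest in deciles 6 and 7 and histone genes in decile 7, the spindle and checkpoint lists are highest in the last, and the matrix list is lowest in decile 7.

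Outside mitosis, 3 of 19 detected genes for cyclin-dependent kinase inhibitors and p53 targets were at least 2-fold higher in G2/M cells, and these were *Cdkn2d* and *Cdkn2c*, inhibitors of the INK4 family, and *Ccng2* (1.11). Of all 10213 detected genes, 3.67% were at least 2-fold higher. *Cdkn2d* had 158 and 33.4 CPM (2.25, interval 2.19 to 2.31) and *Cdkn2c* had 52.3 and 17.1 CPM (1.61). *Cdkn1a*, which encodes p21, had 196 and 201 CPM (-0.04), and *Trp53* was at 0.11. The remaining INK4 genes were all but missing from PC20, with 1 UMI of *Cdkn2a* and 0 UMIs of *Cdkn2b* in the G2/M cells and 0 UMIs of either in the other PC20 cells.

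The 10 highest ratios among genes with at least 50 CPM, outside the score, were those of *Kif2c*, *Aspm*, *Fam83d*, *Kif20a*, *Aurka*, *Cep55*, *Serpinb8*, *Arhgef39*, *Arhgap19* and *Sapcd2*. The last 4 were in no gene list. *Serpinb8*, an intracellular serine protease inhibitor, had 62.0 and 6.05 CPM (3.36) with a UMI in 68.4% of G2/M cells and 16.1% of others. *Sapcd2*, a regulator of spindle orientation, had 58.2 and 5.97 CPM (3.29). *Serpinb8* stayed between 3.26 and 4.59 CPM over deciles 1 to 7 of the score and had 6.99, 16.8 and 62.0 CPM in the last 3. *Aurka*, by comparison, had 2.38 CPM in decile 1 and 16.6 CPM in decile 7.

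On the low side the 10 genes were *Aldoc*, *Ogn*, *Ctla2a*, *Mt3*, *Ccl5*, *Dbp*, *H2afj*, *Dusp1*, *Eno3* and *Dnajb9*, and the first 4 were at least 2-fold lower. *Ctla2a*, a cysteine protease inhibitor related to cathepsin propeptides, was by far the most abundant of them, with 299 CPM in G2/M cells and 825 CPM in the others (-1.46, interval -1.50 to -1.43). Single cells held up to 443 *Ctla2a* UMIs in the G2/M set and up to 1401 among the others, around medians of 4 and 6, so the cells of both sets spread far above their medians and overlapped. It had a UMI in 87.6% and 88.7% of cells, and in 61.5% and 73.1% after thinning to 10000 UMIs. Along the score *Ctla2a* went from 1504 CPM in the lowest decile to 402 CPM in decile 7. In PC5 the direction was the opposite, with a log2 ratio of 0.26, and the difference was not tested. *Aldoc*, the aldolase C of glycolysis, had 30.4 and 104 CPM (-1.78), *Ogn*, the matrix proteoglycan osteoglycin, had 23.3 and 64.9 CPM (-1.48), and *Mt3*, a metallothionein, had 25.6 and 67.5 CPM (-1.40). All 4 were lower in deciles 6 to 9 than in deciles 1 to 5.

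Most of the other programmes differed little. Of all 10213 detected genes 48.6% were below 0. In the hypoxia (19 genes) and amino acid stress (27 genes) lists 0 genes reached 2-fold, and in the glycolysis (18 genes) and matrix (31 genes) lists *Aldoc* and *Ogn* were the only ones. Immediate-early and other short-lived transcripts were lower in 20 of 27 genes, with 0 past 2-fold and a median of -0.32, and the lowest were *Atf3* (-0.92), *Dusp1* (-0.86) and *Fos* (-0.85). NF-kappaB and chemokine genes had a median of -0.40 over 11 genes. Cytosolic ribosomal protein genes took 303834 CPM in G2/M cells and 332582 CPM in the others and were lower in 79 of 81 genes, by a median of -0.13. Mitochondrial genes took 19660 and 20019 CPM. Of the nuclear noncoding RNAs, *Xist* was at 0.30, *Malat1* at 0.10 and *Neat1* at -0.19.

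The cells were labelled pericytes, and the G2/M cells held little of several pericyte markers. Of 18 pericyte and smooth muscle genes, 5 were detected, of which *Cald1* with 700 CPM was the most abundant and 0 differed by 2-fold from the other cells. The 18 genes summed to 1396 CPM in G2/M cells and 1405 CPM in the others. *Pdgfrb*, the receptor by which pericytes are recruited, had 4.42 CPM and a UMI in 15.6% of G2/M cells. *Rgs5*, *Kcnj8*, *Abcc9* and *Vtn* had 0 UMIs, and *Cspg4* had 2. A count of 0 in this set, with 3 counts as its limit, allows a level of up to 0.128 CPM and a UMI in up to 0.633% of the 474 cells, by counting error alone. Of 22 markers of other brain cell types 2 were detected, and these were *Slc4a4* with 238 CPM and *Tubb3* with 7.86 CPM, whose summed list was 247 CPM against 233 CPM in the other PC20 cells. *Pdgfra*, *Cdh5*, *Aqp4*, *Ptprc* and *Rbfox3* were at 0 UMIs in the G2/M cells. The label G2/M, in turn, rests on the score. Of the 140 detected mitosis list genes outside the score, 102 were at least 2-fold higher, among them *Aurka*, *Ube2c* and *Top2a*. The score made this contrast, so these genes are no test of the label, and the sum of levels gives no phase for a single cell.

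PC20 G2/M cells had more UMIs per cell. Their median was 44861 UMIs per cell (95% order-statistic interval 43565 to 46725, range 1913 to 214357) against 32149 in the others (31459 to 32836), with a median of 6150 against 5280 genes. The ratio of median UMIs was 1.40. Dividing the opposite ends of the 2 intervals gave 1.33 to 1.49, which is not an exact 95% interval. Mitochondrial UMIs were 1.99% and 2.03% at the median. This depth difference moves with every count of cells with a UMI given here, and its part in them was read only by thinning. G2/M cells made up 6.66%, 3.20%, 13.9% and 16.2% of the cells in quartiles 1 to 4 of UMIs per cell. They were 112 of the 577 cells (19.4%) with over 2 times the median UMIs of the library. No doublet caller was run, and the part of doublets in these deep cells was not tested. Without the 5% of cells with the most UMIs 374 genes were at least 2-fold higher, and in cells of the middle 50% of UMIs 382 were, against 375 in all. The genes at least 2-fold lower were 84 and 129 in these settings, against 62 in all.

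**Figure D3:**
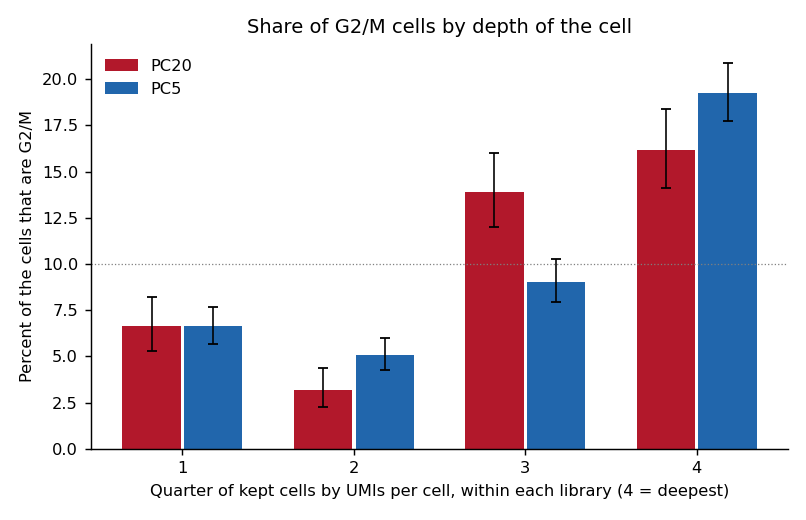
Percent of kept cells that belong to the G2/M set (y axis) in each quartile of UMIs per cell within PC20 and PC5, with exact binomial 95% intervals and a dotted line at the overall 10%. Both libraries have their highest share in the deepest quartile, 16.2% in PC20 and 19.3% in PC5, and their lowest in the second.

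The G2/M cells differed among themselves in which mitosis genes were highest. Spearman's rank correlation over the 474 cells, on CPM, is given as a description, and all pairs share the depth of the cell and, for score genes, the choice by their sum. It was highest between *Prc1* and *Top2a* (0.70), and pairs among *Cenpf*, *Prc1*, *Nusap1*, *Top2a*, *Cdk1* and *Aurkb* lay between 0.35, for *Cenpf* with *Aurkb*, and that value. A second set, *Cdc20*, *Ccnb2* and *Cenpa*, had positive values too, with 0.53 for *Cdc20* with *Ccnb2* and 0.49 for *Cdc20* with *Cenpa*. Between the sets the values ran from -0.15 for *Cdc20* with *Top2a* to 0.25 for *Cenpa* with *Cenpf*. These 2 sets were picked after the values were seen, and other genes went with both. *Ccnb1* had 0.33 with *Cdc20* and 0.54 with *Prc1*, *Ube2c* had 0.32 with *Cenpa* and 0.52 with *Prc1*, and *Plk1* had 0.36 with *Cdc20* and 0.42 with *Cenpf*. After thinning to 10000 UMIs, the correlation over 439 cells was 0.54 for *Prc1* with *Top2a*, 0.27 for *Cdc20* with *Ccnb2* and -0.17 for *Cdc20* with *Top2a*. The other pairs of the second set had 0.21 (*Cdc20* with *Cenpa*) and 0.20 (*Ccnb2* with *Cenpa*) after thinning, below the 0.24 of *Cenpa* with *Cenpf* between the sets, so *Cenpa* was no closer to the second set than to *Cenpf*. In the 995 PC5 G2/M cells *Prc1* with *Top2a*, *Cdc20* with *Ccnb2* and *Cdc20* with *Top2a* had 0.49, 0.16 and -0.02 without thinning, and 0.39, 0.13 and -0.01 over 898 cells with it.

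**Figure D4:**
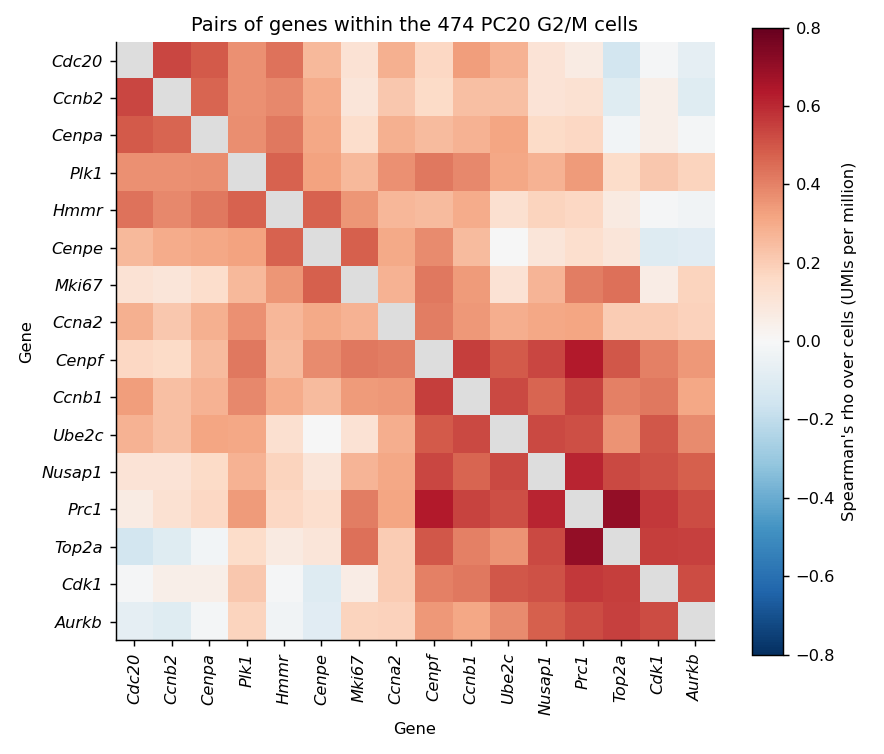
Spearman's rank correlation between the CPM of 16 mitosis genes (both axes) over the 474 PC20 G2/M cells, red for positive and blue for negative, grey on the diagonal. The deepest red is between *Prc1* and *Top2a* at 0.70, and the lowest value is -0.15 between *Cdc20* and *Top2a*.

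Along the score within the G2/M set, in 5 quintiles of cells, the score gene *Cenpf* had 492 CPM in the lowest and 2164 CPM in the highest. *Top2a* had 602 and 1118 CPM, *Aurka* 107 and 267 CPM, and *Dbf4*, the activator of the CDC7 kinase, 221 and 362 CPM. *Mcm6* had 20.7, 15.3, 24.5, 21.4 and 11.2 CPM from the lowest quintile to the highest, and *Ctla2a* 366, 307, 396, 246 and 198 CPM, so neither followed the score step by step. The summed replication list stood between 2194 and 2372 CPM in all 5 quintiles, and it did not follow the score there.

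The same rule in PC5 gave 995 G2/M cells of 9950. Since it takes an equal share of each library, the cut was a score of 2442 CPM in PC20 and 1106 CPM in PC5, and 957 PC20 cells (20.2%) were at or over the PC5 cut while 118 PC5 cells (1.19%) were at or over that of PC20. Against the other cells of its own library, the PC5 set had 326 genes (3.36%) at least 2-fold higher and 41 (0.423%) at least 2-fold lower of 9691. The median log2 ratios were 2.77 in PC20 and 2.50 in PC5 for kinesins and spindle, 2.35 and 2.40 for passengers and cytokinesis, and 1.12 and 1.71 for centromere and kinetochore. The replication list had 12 of 47 genes at least 2-fold higher in PC5 (median 0.68) and 3 of 55 in PC20 (median 0.00). Clustered histone genes had medians of 1.21 over 16 detected genes in PC5 and 0.59 over 33 in PC20, so the gene sets differed. Summed over the whole histone list, the log2 ratios were 0.62 in PC5 and 0.48 in PC20. Among the 118 PC5 cells at or over the PC20 cut the median of the replication list was 0.55. Clustered histone genes summed to 295 CPM in these 118 cells, below the 486 CPM of all PC5 G2/M cells and the 317 CPM of the other PC5 cells. *Prim1* and *Pola1*, for subunits of the priming polymerase, were at 1.53 and 1.05 in PC5 and at -0.17 and -0.18 in PC20. With 1 library each, these differences between passages were not tested.

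In absolute level, most mitosis genes were higher in PC20 G2/M cells than in PC5 G2/M cells. At a background of 1813 genes (16.9%) at least 2-fold higher and 2082 (19.4%) at least 2-fold lower of 10708, 79 of the 149 mitosis genes were at least 2-fold higher in PC20 and 3 lower, with a median log2 ratio of 1.04. Without the score genes these were 71 of 140 and 3. The cut that chose the cells was itself higher in PC20. The 5 highest were *Spc24* (195 against 23.6 CPM, 3.04), *Fbxo5* (2.80), *Smc4* (2.65), *Cdc20* (2.50) and *Mki67* (2.40). The lowest were *Cenpx* (23.8 against 106 CPM, -2.15), *Mis18a* (-1.57), *Anapc5* (-1.04), *Anapc13* (-0.95) and *Zwint* (-0.93). The 118 PC5 cells at or over the PC20 cut had 2968 CPM of score genes and 2224 CPM of the kinesin and spindle list, below the 4428 and 4320 CPM of the PC20 set. In the counts over all genes, the 105 detected genes with 0 UMIs on 1 side took a ratio against a floor of 3 UMIs. In the lists such genes stand in the totals without being called higher or lower, and medians leave them out.

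**Figure D5:**
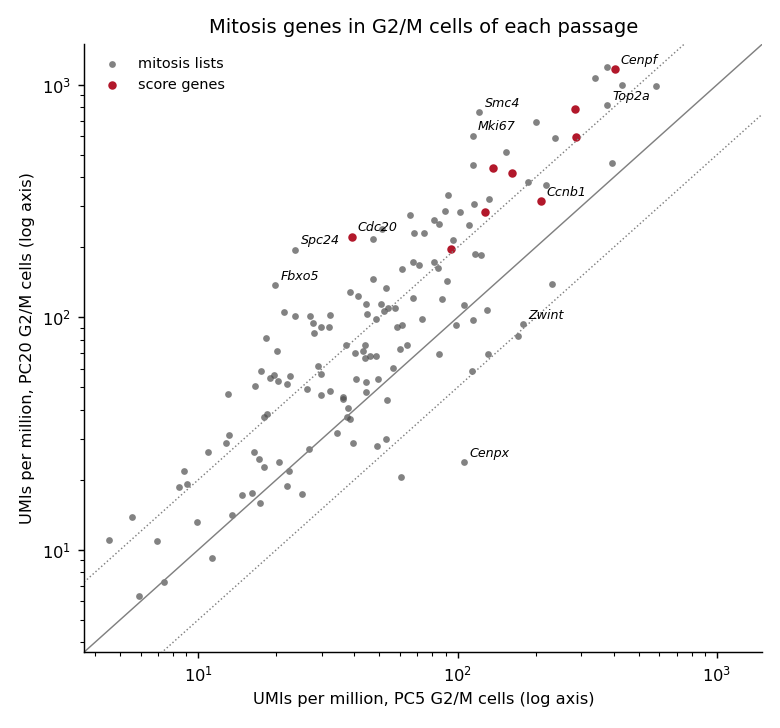
CPM of each mitosis gene in PC5 G2/M cells (log x axis) and PC20 G2/M cells (log y axis), with the 9 score genes in red, equality as a solid line and 2-fold as dotted lines. Most points lie above equality, *Spc24* is the farthest above with 195 against 23.6 CPM, and *Cenpx* is the farthest below.

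Some other lists had larger medians between the passages. Pericyte and smooth muscle markers had the lowest, -2.72, with 5 of 9 genes at least 2-fold lower in PC20 G2/M cells. Within the libraries, 5 of these markers were detected in PC20 and 9 in PC5. A gene could pass the detection minimum through 1 passage alone, where it was high, so the counts and medians here carry no test. Amino acid stress genes were at least 2-fold higher in PC20 G2/M cells in 22 of 27 genes (median 2.20), and matrix genes at least 2-fold lower in 23 of 39 (median -1.82). Within the libraries, 31 matrix genes were detected in PC20 and 37 in PC5. Of all 10708 detected genes, 16.9% were at least 2-fold higher and 19.4% at least 2-fold lower. *Ddit3*, the stress transcription factor CHOP, had 796 CPM in PC20 and 20.3 CPM in PC5 G2/M cells, and 908 CPM in the other PC20 cells, so it did not set the G2/M cells apart within PC20. *Ccnd2* and *Ccnd3*, for D-type cyclins, were lower in PC20 by ratios of -2.48 and -3.15, and each was within 0.30 log2 units of the other PC20 cells. Clustered histone genes were at least 2-fold higher in PC20 in 20 of 33 genes, but within the libraries 33 were detected in PC20 and 16 in PC5.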

How the data were processed

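The authors deposited UMI counts for each gene in each barcode, made from droplet libraries (3′ kit v3.1) with Cell Ranger 5.0 (5.0.1 in the file headers) on the mouse build mm10, with barcodes already called as cells and no normalization. Total UMIs kept were 191122251 in PC20 and 223054273 in PC5. Doublets were not removed and no caller was run, and 135 PC20 and 679 PC5 barcodes failed the cell filter. UMIs were summed over the cells of each set, scaled to CPM and compared as log2 ratios with exact conditional binomial intervals, with Poisson intervals for CPM, Clopper-Pearson intervals for shares and order-statistic intervals for medians. With 1 library per passage no test was possible, and a difference of at least 2-fold was counted among genes with a UMI in 10% or more of the cells of one or the other set. Shares of cells were read again after thinning to 10000 UMIs. The members and gene lists (22 written by hand, 3 families taken by symbol) were chosen with earlier results of these data known. Genes named are the 9 of the score, list members a sentence needs with the highest, lowest and most abundant of a list, the 10 highest and lowest ratios among genes with at least 50 CPM without predicted genes, and the 5 highest and lowest of the mitosis lists between passages. Promoter windows are from RefSeq (GRCm38.p6), and 31011 of 31053 gene identifiers were found in GENCODE M21 on the same build. Of 2 identifiers for *Aldoa*, the lists used the abundant one. The ratio step, tested on simulated PC20 counts of 10213 genes, recovered 200 of 200 genes changed 4-fold and placed 0 unchanged genes past 2-fold. These counts held Poisson error alone, without variation between cells or a choice by score. The simulation thus checks the arithmetic of the step and not its behaviour in these cells. Python 3.11.15, numpy 2.4.6, scipy 1.17.1, pandas 2.3.3 and matplotlib 3.10.9 were used. Alternatives changed the score, the cell filter, depth, the contrast, the detection minimum, a pseudocount and the scaling.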

Additional observations from a re-analysis of the deposited data

Results flagged for a closer look

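Of the 47 genes of DNA replication detected in both libraries, 24 had ratios of G2/M cells over the other cells of the same library with opposite signs in PC20 and PC5 (51.1%), against 2807 of all 9109 genes detected in both (30.8%). In 4 of them, and in 1 other gene, at least 1 ratio was 2-fold or more and both counting intervals left out 0, which is what drew attention to them. *Mcm6* was at -1.07 in PC20 and 0.18 in PC5, and *Chaf1b* at -1.02 and 0.61. *Prim1* was at -0.17 in PC20 and 1.53 in PC5, and *Pola1* at -0.18 and 1.05. *Ctla2a*, a protease inhibitor gene outside replication, was at -1.46 in PC20 and 0.26 in PC5. These differences were not tested, since each passage had 1 library, and the other cells of PC20 held more of the replication list (1879 CPM) than those of PC5 (914 CPM).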

How the results depend on the processing

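Of the 158 named genes at least 2-fold apart between PC20 G2/M cells and the others, 157 or 158 kept their direction under each alternative that changed this comparison. The exception, *Cdc6*, was 0.088 against cells at or below the median score. Past 2-fold remained 46 of them with a pseudocount of 1, 125 with one of 0.1, and 149 to 158 otherwise. Of 7 lists with a median past 2-fold, 6 stayed past it with a pseudocount of 0.1 and 1, the score genes, with one of 1, and all 7 did otherwise. Of 26 list medians 24 to 26 kept their sign, and those that turned lay near 0 (replication, and under thinning pericyte and smooth muscle markers). Beside 375 genes at least 2-fold higher, there were 576 against cells at or below the median score, 579 with detection in 1% of cells, and 191 and 50 with pseudocounts of 0.1 and 1 per 10000 UMIs. The 62 genes at least 2-fold lower were less stable. They were 100 with the top 5% of cells, 129 in the middle 50% of UMIs, 190 against cells at or below the median score, 463 and 18 with detection in 1% and 25% of cells, 35 after thinning, and 6 and 1 (*Ctla2a*) with the pseudocounts, which shrink ratios of low genes by construction. The ratio of median UMIs per cell, 1.40, was 1.24 in the middle 50% of UMIs and 1.53 against cells at or below the median score. Between passages, pseudocounts of 0.1 and 1 gave 791 and 145 genes higher in PC20 G2/M cells and 989 and 135 lower, and detection in 1% of cells gave 3332 lower. The cause of the other changes was not tested. Leaving out shared barcodes, keeping cells with at least 10000 UMIs and taking PC5 cells at the PC20 cut were chosen after seeing the data. No paired analysis was possible because each passage was 1 library. Depth limits mainly genes under a few CPM, such as *Ung* with 0.85 CPM, whose intervals are wide.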
